A study of Mus musculus with 2 samples.

Results

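Wnt proteins are secreted ligands that bind Frizzled receptors at the cell surface, and the secreted inhibitors of the Sfrp and Dkk families keep them from signalling. The 37 genes described here were chosen by gene symbol as 19 Wnt ligands, 10 Frizzled receptors and 8 secreted inhibitors (Sfrp1, Sfrp2, Sfrp4, Sfrp5 and Dkk1 to Dkk4), out of 21911 protein-coding genes. The rule used symbols and no measured value. All 37 symbols were found in the gene annotation. Chromatin opening was measured by DNase-seq, in which DNase I cuts DNA that is not packed in nucleosomes and the cut ends are sequenced. The tissue was gastrocnemius, the large calf muscle, of male B6CASTF1/J mice aged 14 days, which are hybrids of C57BL/6J with the wild-derived CAST strain. The labels gave 1 group with 2 biological replicates, both naming the same donor entry, and carried the words 3x Males without saying how many animals went into a library. With 1 group there was no contrast to test, and the spread between the 2 libraries may be technical.

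A Wnt ligand bound to a Frizzled receptor and a coreceptor of the Lrp family stabilises beta-catenin, which then acts with TCF/LEF factors on target genes, while other Wnt signals work without beta-catenin through planar polarity and calcium pathways. Sfrp proteins bind Wnt ligands directly, whereas most Dkk proteins bind the Lrp coreceptors. In skeletal muscle the pathway is known for its part in embryonic myogenesis, in satellite cells, the stem cells of muscle, and at the neuromuscular junction.

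The strict peak lists held 82498 peaks in replicate 1 and 88198 in replicate 2. In each of these peaks at least 1 base had a false discovery rate (FDR) of 0.001 or less, while the permissive lists of 138117 and 139545 peaks reached an FDR of 0.05. Each peak carries a signal value from the authors, whose scale the sources used here do not explain, so genes were ranked within a library, where 100 is the strongest of all protein-coding genes. Replicate 1 values were a median of 1.83 times those of replicate 2 over genes open in both. Below, values are given in the order replicate 1 and replicate 2, and SDs are over these 2 libraries. A gene was called open if a strict peak lay within 1 kb of one of its starts in both libraries. Genes with no promoter peak shared the percentile 18.3. The muscle fibre markers were open in 10 of 10 cases, as were 6 of 6 pericyte and smooth muscle markers, 5 of 8 fibroblast, 5 of 8 endothelial, 4 of 6 Schwann cell, 3 of 5 tendon, 1 of 6 leukocyte and 0 of 5 hepatocyte markers. Of all protein-coding genes 61.7% were open. The fibroblast, endothelial, Schwann cell and tendon counts were near that share and do not show that these cells were present.

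Promoter stretches are shown for the 3 receptor genes whose promoters had the highest mean percentile of all 37 genes. Each is the part of the strongest replicate 1 peak that lies upstream of the gene's annotated starts, 5′ to 3′ on the gene's strand, in mouse build mm10. Capitals mark bases that lay in a footprint in both libraries, a footprint being a short stretch within open DNA that was protected from cutting. The letters are those of the C57BL/6J reference, and CAST alleles were not read. The stretch of Fzd4 is chr7:89404141-89404354 on the plus strand, that of Fzd5, which overlaps an annotated exon of the gene model Gm38058, is chr1:64737752-64737980 on the minus strand, and that of Fzd7 is chr1:59481901-59482146 on the plus strand.
Fzd4: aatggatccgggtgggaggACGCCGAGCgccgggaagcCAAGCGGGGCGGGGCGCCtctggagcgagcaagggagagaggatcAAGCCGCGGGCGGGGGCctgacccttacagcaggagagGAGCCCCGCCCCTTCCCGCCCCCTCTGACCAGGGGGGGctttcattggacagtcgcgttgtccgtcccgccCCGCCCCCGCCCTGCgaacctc
Fzd5: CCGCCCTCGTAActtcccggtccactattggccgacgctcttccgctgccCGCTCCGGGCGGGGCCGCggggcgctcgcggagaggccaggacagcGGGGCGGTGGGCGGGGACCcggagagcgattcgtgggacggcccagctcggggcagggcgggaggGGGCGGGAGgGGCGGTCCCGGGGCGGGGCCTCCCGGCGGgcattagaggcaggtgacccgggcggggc
Fzd7: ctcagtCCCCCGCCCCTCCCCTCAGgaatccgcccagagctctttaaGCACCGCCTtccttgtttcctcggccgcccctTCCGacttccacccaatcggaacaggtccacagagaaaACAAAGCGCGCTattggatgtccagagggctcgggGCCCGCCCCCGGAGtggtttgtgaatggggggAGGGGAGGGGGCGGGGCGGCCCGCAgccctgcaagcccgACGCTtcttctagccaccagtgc
The Sp motif GGGCGG, read on both strands with overlaps allowed, occurred 7 times in the Fzd4 stretch, 9 times in that of Fzd5 and 6 times in that of Fzd7. All its bases were in capitals in 6, 6 and 4 of these matches. The NF-Y motif CCAAT occurred 1, 1 and 2 times, each time entirely outside the shared footprints. Capitals made up 45.33%, 37.99% and 35.77% of the bases of the Fzd4, Fzd5 and Fzd7 stretches, all of which are rich in G and C. Some Sp matches lay in the same run of capitals and are not separate hits. Whether either motif lay in footprints more or less often than other bases was not tested. In the 300-base promoter sequences of RefSeq, which were matched for 25 of the 37 genes, GGGCGG was present in 19 (76%) against 51.0% of all promoters of that length, and CCAAT in 11 (44%) against 42.1%. The TCF/LEF motif CTTTGAT was present in 2 (Wnt5b and Wnt11, 8%) against 3.67%. A match is a run of letters and not a bound site.

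Of the 37 genes, 24 were open in both libraries, which is 64.9% against 61.7% of all protein-coding genes, so their share was close to the background. The classes differed in their counts. All 10 Frizzled receptors were open, against 9 of 19 Wnt ligands and 5 of 8 inhibitors, of which 3 were Sfrp and 2 Dkk genes. The open promoters were mostly moderate in signal. Their medians of 2.89 and 1.55 compare with 6.15 and 3.51 over all open genes, and their median percentiles were 53.6 and 52.0 against 69.2 in either library. None of the 37 reached a mean percentile of 90, which 9.5% of all genes did. In tissue made of many cell types, strong opening in few cells and weak opening in many cannot be told apart.

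**Figure D1:**
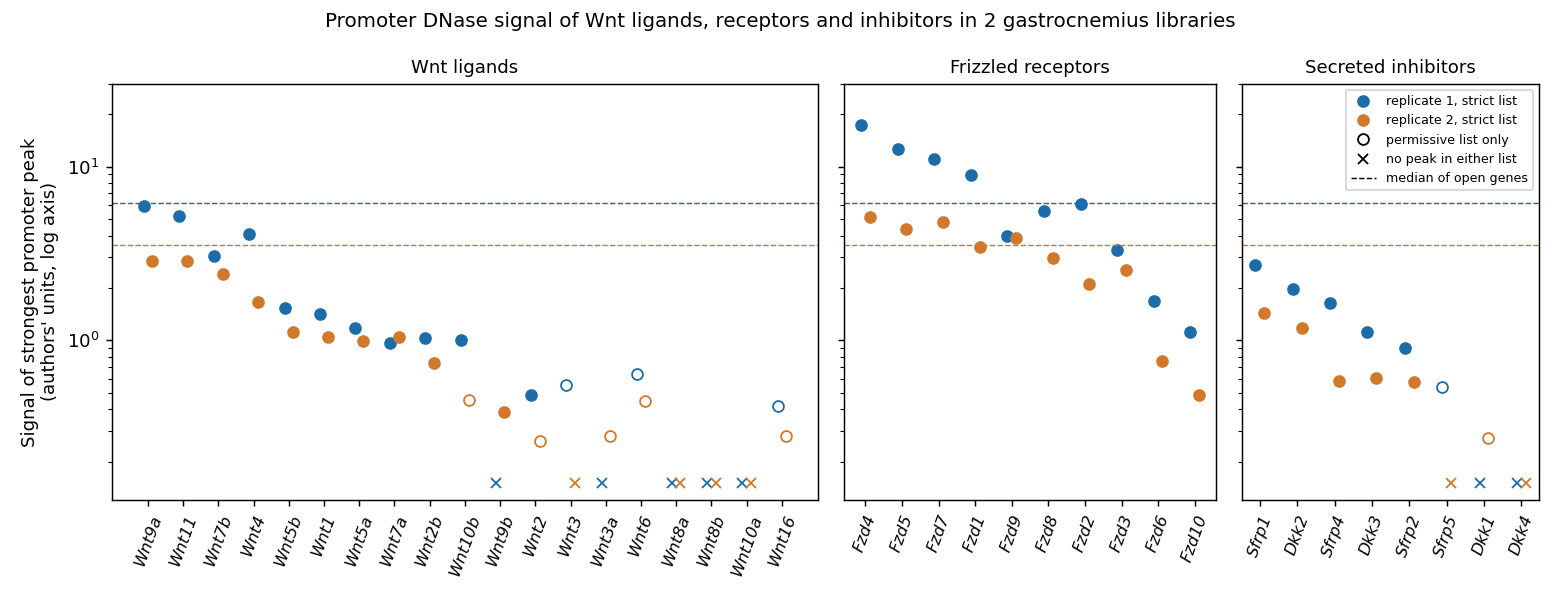
Signal of the strongest promoter peak of each gene (y axis, authors' units, log scale) in replicate 1 (blue) and replicate 2 (orange), by class and in order of mean percentile. Filled circles are strict peaks, open circles peaks of the permissive list only, and crosses at the foot mark libraries with no peak in either list; dashed lines are the medians of all open genes, 6.15 and 3.51. All 10 receptors have filled circles in both libraries, while 10 of 19 ligands and 3 of 8 inhibitors do not.

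Among the receptors, Fzd4, which in blood vessels also serves as the receptor for norrin, had the strongest promoter. Its signal was 17.3 and 5.13, at percentiles 97.0 and 82.1 (mean 89.6 ± 10.5 SD, n = 2). The peak was centred at -94 and -24 bases from the start. Weaker peaks of 4.34 and 2.21 stood at -684 and -704, and others of 1.71 and 1.12 at 786 in both libraries.

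Fzd5, needed in eye and gut development, reached 12.6 and 4.36 (83.1 ± 9.65) with a peak at -110 in both libraries. Fzd7, known as the receptor for Wnt7a on satellite cells, reached 10.98 and 4.81 (82.8 ± 4.26). The order of Fzd5 and Fzd7 was the other way round in replicate 2, and the gaps between the mean percentiles of these 3 genes were smaller than the SD of Fzd4 or of Fzd5. The Fzd7 peak was centred at -383 and -373 from the GENCODE start, and RefSeq places the start at 59482147, inside that peak. Of the 2001 bases around the Fzd7 start, all 2001 had a listed FDR in both libraries, and the window held 5 and 4 separate strict peaks.

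The remaining receptors ran from moderate to low. Fzd1 had 8.96 and 3.46, Fzd2 6.05 and 2.11, and Fzd8 5.52 and 2.96. Fzd9 had 3.97 and 3.87 from a peak with the same bounds in both libraries (chr5:135251181-135251380, -51 bases from the start). As replicate 1 values were higher in general, this placed Fzd9 at percentiles 59.2 and 72.4, and its ratio was 0.560 of the median ratio, the lowest of the receptors. Fzd3, known for its part in axon guidance, had 3.33 and 2.52. Fzd6, which acts in planar polarity of skin and hair, had only 1.68 and 0.757, and Fzd10 had 1.12 and 0.482. The Fzd6 and Fzd10 peaks also lay within 1 kb of the start of a noncoding gene, Gm26704 and 5930412G12Rik, and opening at these cannot be assigned to either gene of the pair. In no case did another protein-coding gene start within 1 kb of a strict promoter peak of the 37 genes.

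Openness was broad around most receptor starts. The median number of bases with a listed FDR in the 2001-base window was 1532 and 1832 over the receptors, against 615 and 707 over all genes, 933 and 1092 over open genes and 315 and 265 over the ligands. Fzd6 (849 and 1087), Fzd9 (881 and 936) and Fzd10 (508 and 711) lay below the medians of open genes. At least 1500 listed bases in both libraries were found at 6 of the 37 genes (16.2%). The share was 6.68% of all genes and 10.8% of open genes. Of the 6, 5 were receptors. The other was Wnt9a. At least 1 listed base in both libraries was found at 29 of the 37 genes (78.4%), against 66.5% of all genes.

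The 9 open ligands lay lower. Wnt9a, a ligand of joint formation, was the strongest with 5.95 and 2.88 (66.0 ± 3.19). Its 2 main peaks traded places between the libraries: the one just upstream of the start had 3.72 in replicate 1 and 2.88 in replicate 2, and the one near 1061 bases downstream had 5.95 and 2.61. Wnt11, a ligand of the pathways that work without beta-catenin, had 5.21 and 2.85 (64.3 ± 1.06). Its strongest peak was at -774 and -764 from the start of a shorter transcript, while peaks at its outer start (-40 and 50) had 1.83 and 1.03.

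Wnt7b, a ligand of lung and vessel development, followed with 3.07 and 2.42 (57.2 ± 3.81). Its peak stood apart from the start, at -758 and -768, and was lost in a window of 250 bases. Wnt4, a ligand of kidney and gonad development, had 4.10 and 1.66 with a peak at -158 and -178. The other open ligands had between 0.959 and 1.54 in replicate 1 and between 0.743 and 1.12 in replicate 2. They were Wnt5b with 1.54 and 1.12, Wnt1 with 1.42 and 1.05, Wnt5a with 1.17 and 0.991, Wnt2b with 1.04 and 0.743, and Wnt7a with 0.959 and 1.04. Wnt5a and Wnt5b are classical ligands of the pathways without beta-catenin. Wnt7a, which is known to expand satellite cells and enlarge fibres, was the only open gene of the 37 whose value was higher in replicate 2. Relative to the median ratio of the libraries its ratio was 0.503, the lowest, and that of Fzd4 was 1.84, the highest. The Wnt7a peak at -518 and -548 also lay within 1 kb of the start of the noncoding gene Gm30437.

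A strict promoter peak in 1 library alone was found at 3 ligands. Wnt2, which acts in lung and placenta, had 0.485 at 164 bases from the start in replicate 1 only, and Wnt10b, known to restrain fat cell formation, had 0.998 at 540 bases in replicate 1 only. Wnt9b, a ligand of kidney development, had 0.385 at 84 bases in replicate 2 only. Of all genes, 1.75% were open in replicate 1 only and 1.76% in replicate 2 only. In the permissive lists Wnt2 and Wnt10b had peaks in the other library too, of 0.262 and 0.454, but those of Wnt2 did not overlap the replicate 1 peak in place. Wnt9b had no listed base in replicate 1 at all.

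No strict promoter peak in either library was found at 10 genes, or 27% against 34.8% of all genes. Wnt6 (0.636 and 0.445) and Wnt16 (0.418 and 0.280) had permissive peaks in both libraries, which with Wnt2 and Wnt10b made 28 genes with permissive peaks in both (75.7%), against 65.7% of all genes. Permissive peaks in 1 library were found for Wnt3 (0.552, replicate 1), Sfrp5 (0.535, replicate 1), Wnt3a (0.280, replicate 2) and Dkk1 (0.275, replicate 2). Wnt8a, Wnt8b, Wnt10a and Dkk4 had no promoter peak in any list and no listed base in the window. Neither list of either library had a peak for 30% of all genes. The depth of sequencing is unknown from the files used here, so a closed promoter is one with no called peak and opening below that limit was not detectable.

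For 3 of the ligands that were not open the call rested on the annotation. RefSeq gives Wnt2, Wnt3 and Wnt6 further starts 2187, 36789 and 17550 bases away from any GENCODE start. The Wnt6 start at chr1:74754342 lay inside an open region with signals of 4.88 and 0.858. The starts of Wnt2 and Wnt3 lay 772 and 345 bases from open regions of 1.43 and 1.22, and of 0.747 and 0.372. With RefSeq starts these 3 genes counted as open and Wnt7b did not. In all 26 of 37 were then open. Of all genes 60.6% were open with RefSeq starts, against 61.7% with GENCODE starts.

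The 5 open inhibitors were all of low to moderate signal. Sfrp1 led with 2.70 and 1.44 (51.8 ± 1.16) from a peak at -61 in both libraries. Dkk2 had 1.96 and 1.18 (48.3 ± 0.0516), but from a peak at -1041 and -1061. Closer to the start, a strict peak of 1.14 at 39 bases was found in replicate 1 only. Peaks at 469 and 490 bases had 0.819 and 0.569. Sfrp4 had 1.63 and 0.583 (43.6 ± 4.01) with a peak at -13 and -22. Dkk3, the divergent member of its family, had 1.12 and 0.610 (41.9 ± 1.11) at -80 and -78. Sfrp2 had 0.897 and 0.578 (40.7 ± 0.0629) at -242 and -168. The Dkk1 promoter, which belongs to a classical inhibitor of beta-catenin signalling, held 25 and 431 listed bases.

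Openness over all genes followed the CpG content of the promoter, measured as the ratio of observed to expected CpG in the RefSeq sequence. In the upper 3 of 10 equal groups of genes ordered by this ratio 95.9% were open, and 9 of the 11 ligands, receptors and inhibitors that fell there were open as well. The exceptions were Wnt2 (0.837) and Wnt3a (0.863). In the 4 groups below these 76.7% of all genes were open, against 6 of 14 of the members. None fell in the lower 3 groups, where 14.3% were open. The medians were 0.754 over the 25 genes with a sequence and 0.631 over all genes.

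**Figure D2:**
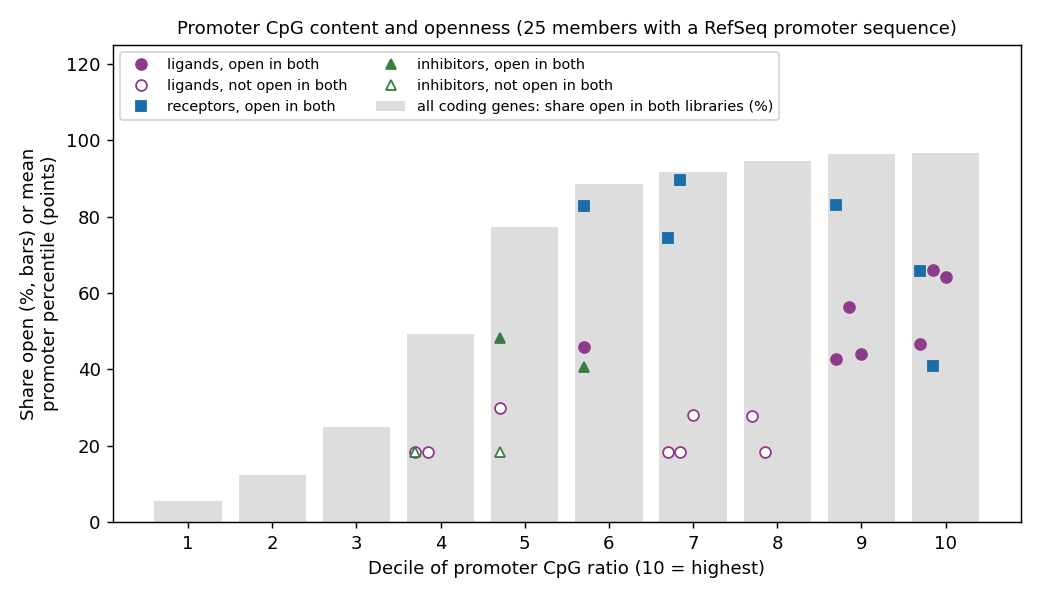
Share of all protein-coding genes open in both libraries (grey bars, %) by decile of promoter CpG ratio, and mean promoter percentile of the 25 genes with a RefSeq promoter sequence (symbols by class; filled if open, white if not). The white symbols of Wnt2 and Wnt3a stand in decile 8, where 94.7% of all genes were open.

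Footprints shared by both libraries were found in 22 of the 37 promoter windows (59.5%), against 61.9% of all genes. All of these 22 were open genes. The open genes without one were Fzd6 and Dkk3, or 8.33% of the 24, against 2.40% of all open genes. Receptors had a median of 5.5 shared footprints and open ligands of 3, against 5 over all open genes. Fzd7 had 13 and 20 footprints with 11 shared, Fzd4 had 13 and 16 with 10 shared, and Fzd5 had 10 and 13 with 8 shared. Wnt9a (2 starts) led the ligands with 15 and 14, of which 9 were shared. Wnt11 (2 starts) followed with 16 and 16 and 8 shared, while Wnt7b (5 starts) had 3 and 3 with 1 shared. Counts cover the windows of all starts of a gene, which were 1 for Fzd4 and Fzd7, 2 for Fzd5 and 3 for Sfrp4. Genes with different numbers of starts are therefore not compared over equal lengths. Among inhibitors Sfrp4 had 8 and 8 with 4 shared, Sfrp2 12 and 8 with 3 shared, Sfrp1 6 and 5 with 2 shared, and Dkk2 4 and 6 with 1 shared. Dkk3 had 4 and 3, Wnt2 3 and 2, Wnt10b 4 and 1 and Wnt9b 0 and 2, with none shared. Wnt5a had 6 footprints in replicate 1 and 28 in replicate 2 over the windows of its 2 starts. Its listed bases, taken from the single window with most, were 851 and 1658. Wnt5b, with 4 starts, had 16 and 24 with 6 shared.

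**Figure D3:**
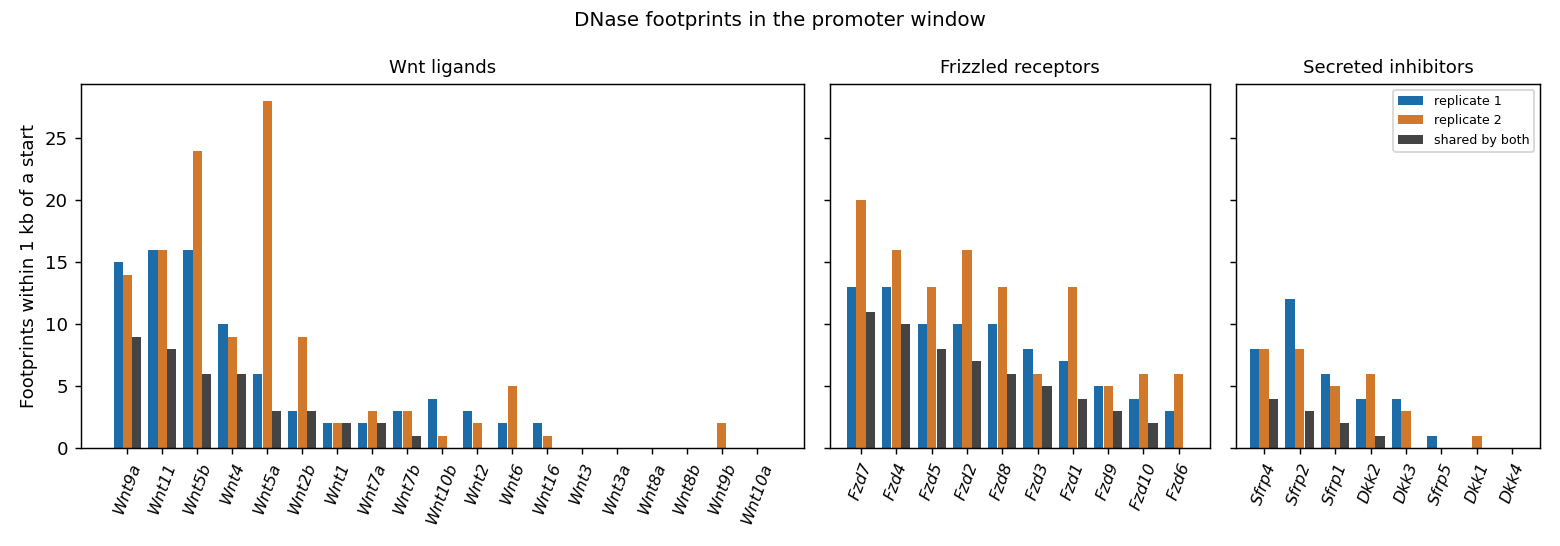
Footprints within 1 kb of a start of each gene (y axis, counts) in replicate 1 (blue), replicate 2 (orange) and shared by both (grey). The receptors carry 56 shared footprints in sum, the ligands 40 and the inhibitors 10. The bars of 28 for Wnt5a and 24 for Wnt5b in replicate 2 are the highest, over the windows of 2 and 4 starts.

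Away from promoters the counts were highest for the ligands. A distal region was an open region with peaks in both libraries, outside every protein-coding promoter window and within 50 kb of a start. At least 1 was found for 34 of the 37 genes (91.9%), against 73.4% of all genes, and 5 or more for 16 (43.2%), against 22.5%. For 3 genes there were 10 or more (8.11%, against 3.49%). The median was 5 for ligands, 3.5 for receptors and 1.5 for inhibitors, against 2 over all genes. All 19 ligands had a distal region, including the 10 that were not open at the promoter. The 10 genes without a strict promoter peak in either library all had one too, which is 27% of the 37, where 17.8% of all genes both lacked such a peak and had a distal region. Of all genes without such a peak, 51.1% had a distal region. Fzd3, Sfrp1 and Sfrp4 had none, although Sfrp1 had 1 in either library taken alone.

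**Figure D4:**
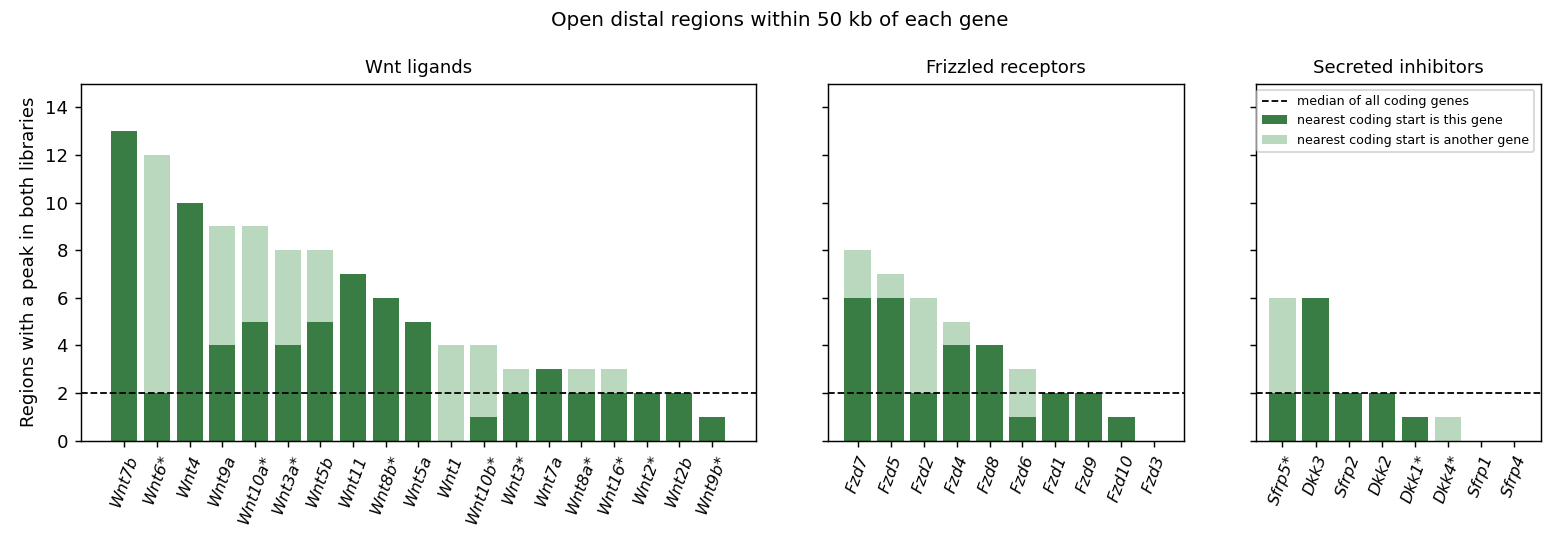
Distal regions open in both libraries within 50 kb of each gene (y axis, counts), split by whether this gene (dark) or another gene (light) has the nearest protein-coding start. Asterisks mark genes not open at the promoter in both libraries and the dashed line the median of 2 over all genes; Wnt7b has 13 dark regions, while only 2 of the 12 of Wnt6 are nearest to it.

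The 168 pairs of gene and region came from 146 different regions, as 22 regions lay near 2 of the genes, all of them neighbouring ligands. Wnt6 and Wnt10a, 19.6 kb apart, shared 9 regions, Wnt3a and Wnt9a, 16.2 kb apart, shared 8, Wnt1 and Wnt10b, 11.7 kb apart, shared 4, and Wnt3 and Wnt9b, 24.3 kb apart, shared 1. In 117 pairs no other protein-coding gene started nearer. Counted by the nearest start alone, the median was 2 over the 37 genes and 0 over all genes. Which gene a region acts on was not measured.

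Wnt7b had 13 regions, the most of the 37 genes in the strict lists of both libraries, and was the nearest gene to all of them. That rank depended on the lists: with replicate 1 alone Wnt4 had 16 and Wnt9a 15 against 14 for Wnt7b, and in the permissive lists Wnt5b and Wnt9a had 15 against 14. Of the 13 regions, 11 lay upstream between -16598 and -43370 bases. The highest of these by mean percentile, at -18088, had 8.93 and 4.13. A further region at -28458 had 6.75 and 4.29 and held 9 shared footprints over 580 bases. Wnt4 had 10 regions, also all nearest to it, of which 7 lay inside the gene and 5 between 8612 and 10522 bases downstream of the start. With replicate 1 alone the Wnt4 count was 16 and not 10. The Wnt4 regions were of middling rank, the highest having 1.34 and 1.58. Wnt11 had 7, with 3 close together between -18850 and -19740 bases, the strongest of which had 4.21 and 4.92, and with replicate 1 alone it had 11. Wnt9a had 9, of which the highest by mean percentile, at -4027, had 3.33 and 4.13. Another, at 2311 bases, had 6.265 and 1.519.

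Of the genes closed at the promoter, Wnt6 had 12 regions, Wnt10a 9 and Wnt3a 8. Only 2, 5 and 4 of these were nearest to the gene named. All 9 of Wnt10a were also counted for Wnt6, and all 8 of Wnt3a for Wnt9a, which was open. With replicate 1 alone and in the permissive lists Wnt3a had 14, against 13 for Wnt6 and 10 for Wnt10a. The Wnt6 intron region 1399 bases downstream of the start had 5.06 and 1.79. At Wnt10a, whose promoter had no peak in any list, a region at 16785 bases had 3.88 and 4.86 and one at 25485 had 9.32 and 4.22. Wnt8a and Wnt8b, both closed and known mainly from early embryos and forebrain, had regions at -3952 (3.59 and 3.97) and -19121 (4.08 and 4.29). Wnt9b, open in replicate 2 only, had 1 region at -9120 (1.54 and 1.59), and with replicate 2 alone it had 4.

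Among receptors Fzd7 had 8 distal regions and Fzd5 had 7. Of those of Fzd5, 3 were exonic, 1538 to 2786 bases downstream of the start, and held no shared footprint. Adjoining regions among them were counted separately. The strongest near Fzd7 was exonic, 1497 bases downstream of the start, with 3.33 and 2.01, and another upstream at -48113 had 2.37 and 1.24. The Fzd5 regions were weak, the highest by mean percentile having 1.39 and 1.31 at 20028 bases, inside the neighbouring gene Ccnyl1. Another at 32298 bases had 0.769 and 1.67. Fzd4, with the strongest promoter, had 5 distal regions, the highest by mean percentile (52.6) with 0.931 and 1.62. Another at -15216 bases had 1.04 and 0.684.

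Among inhibitors Dkk3 and Sfrp5 each had 6. Those of Dkk3 were all nearest to it, and 4 of them stood upstream between -21264 and -33384, led by one with 3.71 and 4.67. Of the 6 at Sfrp5, which was closed at the promoter, 2 were nearest to it, and both strong ones (4.03 and 4.91, and 3.57 and 5.00) lay nearer to Marveld1 and Zfyve27. Dkk1 and Dkk4 had 1 each, at -5144 (1.05 and 1.93) and at 45626 bases (0.697 and 0.399). Sfrp2 had 2, at -1880 (2.86 and 2.12) and 31710 (1.92 and 1.72), and 4 with replicate 2 alone. Dkk2 had 2 weak intronic ones at 2149 (0.741 and 0.606) and 15664 (0.914 and 0.638).

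**Figure D5:**
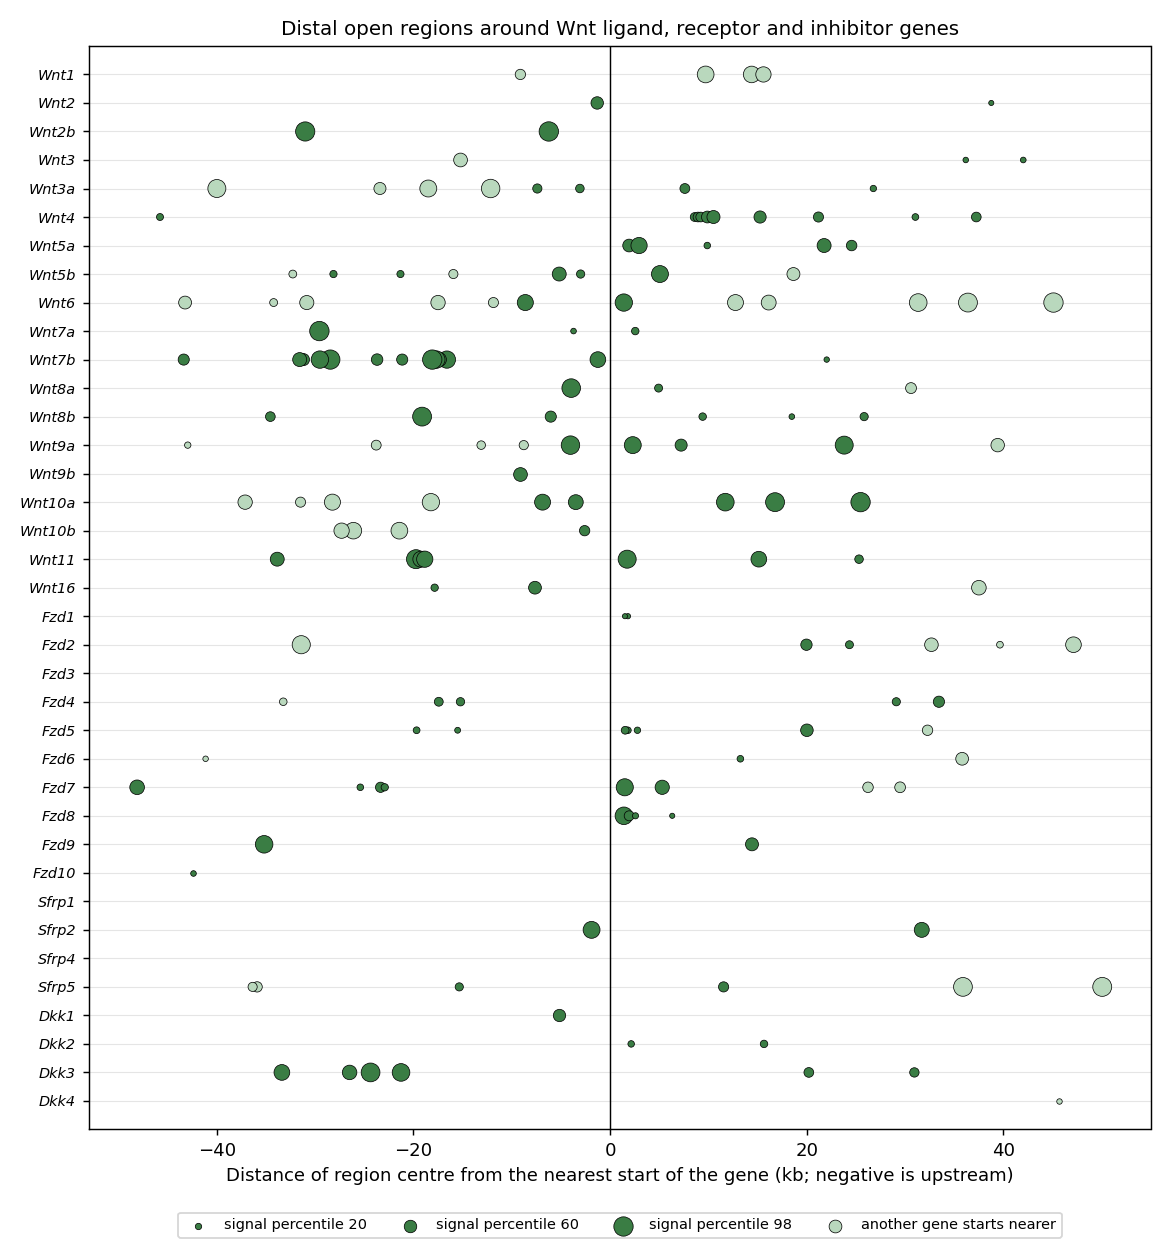
Position of each distal region relative to the nearest start of the gene (x axis, kb, negative is upstream; 1 row per gene). Circle area grows with the mean signal percentile among all shared distal regions, and light circles are regions nearer to the start of another gene; the regions of Wnt7b gather upstream, while those of Wnt4 gather inside the gene.

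Sequences are shown for 3 of the 5 strongest regions, since their signal exceeded that of every ligand promoter in both libraries. The region of Wnt2b is chr3:104968061-104968240 at -6230 bases from its start, that of Wnt10a is chr1:74816901-74817100, and that of Wnt7b is chr15:85600441-85600680. All lie outside protein-coding genes and annotated exons. They are printed on the plus strand of mm10, with capitals for footprint bases shared by both libraries.
Wnt2b distal: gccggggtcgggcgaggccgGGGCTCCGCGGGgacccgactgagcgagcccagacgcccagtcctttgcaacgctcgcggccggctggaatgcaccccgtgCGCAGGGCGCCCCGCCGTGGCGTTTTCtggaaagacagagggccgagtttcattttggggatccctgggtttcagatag
Wnt10a distal: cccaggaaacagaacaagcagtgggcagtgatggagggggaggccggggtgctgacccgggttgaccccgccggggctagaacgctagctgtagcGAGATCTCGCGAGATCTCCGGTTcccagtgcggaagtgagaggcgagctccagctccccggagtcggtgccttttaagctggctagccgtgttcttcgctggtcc
Wnt7b distal: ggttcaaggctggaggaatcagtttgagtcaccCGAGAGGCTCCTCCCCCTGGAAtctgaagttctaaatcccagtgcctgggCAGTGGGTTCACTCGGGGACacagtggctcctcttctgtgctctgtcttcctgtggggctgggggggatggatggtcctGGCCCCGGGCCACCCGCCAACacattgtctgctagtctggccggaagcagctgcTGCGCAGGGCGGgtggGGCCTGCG
The Wnt2b region had 5.97 and 6.03 and stood at percentile 98.3 of all shared distal regions, while the Wnt2b promoter had 1.04 and 0.743. The Wnt10a region held 1 shared footprint and the Wnt7b region 5. In the Wnt7b stretch the MyoD-type E-box CAGCTG, the AP-1 motif TGACTCA and the ETS motif CCGGAAG each occurred once, on either strand and outside the capitals, and GGGCGG occurred once within them. The strongest region by mean percentile, 98.4 with 7.14 and 5.04, lay -29568 bases from Wnt7a. It covered the start of the pseudogene 4930471M09Rik. Of the 146 regions, 4 (2.74%) lay within 1 kb of the start of a gene that does not code for protein. Among these 4, adjoining regions inside Fzd5, both near the start of Gm38058, were counted separately. The share over all distal regions was not counted.

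By signal the 146 regions were like distal regions in general, with medians of 1.46 and 0.957 against 1.28 and 0.936 over all 44386. A shared footprint was present in 88.4% against 90.01%. Their places differed in share: 52.7% were intergenic, 26.7% intronic and 20.6% exonic, against 46.4%, 42.6% and 10.99%. Here intergenic means outside protein-coding genes and all annotated exons, so introns of noncoding genes count as intergenic. Exonic regions included those inside Fzd1, Fzd5, Fzd7 and Fzd8 just past the promoter window.

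Most other genes of the pathway were open. Of 59 listed, 49 were open in both libraries (83.1%, against the 61.7% of all genes), 5 in 1 library and 5 in neither. The highest were the corepressor genes Tle4 (25.01 and 11.9) and Tle1 (22.5 and 9.39) and the kinase gene Gsk3b (18.5 and 7.08), all above Fzd4. The coreceptor genes Lrp5 (2.85 and 1.79) and Lrp6 (4.91 and 3.43) were open, as were Porcn (3.91 and 2.12), whose product acylates Wnt proteins, and Wls (2.30 and 1.31), whose product carries them to the cell surface. Ctnnb1, which codes for beta-catenin, had 14.5 and 7.40, and Axin2, a common target gene of the pathway, had 7.82 and 3.57. The secreted inhibitor genes Wif1 (2.23 and 2.35) and Frzb (0.769 and 0.642) were open in both libraries. The R-spondin genes Rspo2 and Rspo3 and the inhibitor gene Sostdc1 were open in replicate 1 only, and Rspo1 and Notum in replicate 2 only. Those without a strict promoter peak were Kremen2, Sost, Dkkl1, Rspo4 and Celsr1.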

How the data were processed

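Signals of peaks are the authors' own values, deposited per library and used unchanged; per the labels the build is mm10. The authors' deposited FDR tracks give a false discovery rate per base, for bases under 0.05. The footprint lists carry a constant threshold of 0.01. No source used here names the aligner, the peak caller or the footprint caller, nor the sequencing depth. Per the labels, replicate 1 was sequenced on 2 instrument models.

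Starts came from GENCODE M21 (basic set, any start of a gene). The signal of a promoter was that of the strongest strict peak overlapping the window of 1000 bases on either side of a start, and its percentile is the rank over 21911 protein-coding genes. Footprints were counted over the windows of all starts of a gene, and listed bases in the single window that held most. Distal regions were merged strict peaks of both libraries, and shared footprints overlapped by at least 1 base. CpG ratios and promoter sequences came from RefSeq (GRCm38.p6, the coordinates of mm10), printed sequences from the genome of that build. Python 3.11.15, pandas 2.3.3, numpy 2.4.6 and pysam 0.24.0 were used. The counting steps were tested on simulated data (100 of 100 checks over 20 rounds).

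No test was run, since there is 1 group. The rule for the genes uses no measured value, but the genes, lists, motifs and alternatives were chosen with earlier results of these data known, and the alternative of overlapping promoter peaks was added later, after seeing the peaks. All 37 genes are named with both signals. Peak positions, footprints and distal regions are given for the 3 open genes with the highest mean percentile among ligands, receptors, Sfrp and Dkk genes, for those open in 1 library, for the 2 with most distal regions per class and the 2 closed ones with most, and for the 5 strongest distal regions. Of the other pathway genes, the 3 highest and those not open are named by rule, the rest named were picked for their role.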

Additional observations from a re-analysis of the deposited data

How the results depend on the processing

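Without replicate 1 or 2 the number of open genes was 25 and 26, and with overlapping promoter peaks, the alternative added later after seeing the data, it was 24. Windows of 250 and 2500 bases gave 21 (without Wnt7a, Wnt7b and Dkk2) and 26 (with Wnt2 and Wnt6). Of all genes 58.6% and 64.3% were open with these windows. The 10 receptors were open in every one of these settings. With peaks at or above the median signal 16 genes were open, among them 8 receptors and 2 inhibitors, and the median mean percentile changed from 44.2 to 34.3 over all 37 genes and from 54.1 to 63.6 over the open ones. RefSeq starts gave 45.7 and 50.9, the permissive list 47.5 over the open genes, and the windows of 250 and 2500 bases 44.6 over all 37 in either case. With 1 library left out the range was 43.1 to 43.5 over all 37 and 50.5 to 51.0 over the open ones. The median number of distal regions was 2 in place of 4 at 20 kb and for the nearest start alone, with 1 and 0 over all genes. The number of different regions was 80 at 20 kb and 256 at 100 kb. The median number of shared footprints was 1 in place of 2 for footprints wholly inside a peak, for reciprocal overlap of 50% and for the window of 250 bases, and 4 to 5 with 1 library left out. The cause of these changes was not tested beyond their construction. No paired analysis was possible because there is 1 group. The signal scale and the depth limit what can be called closed.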

Other observations

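In the central 200 bases of the 146 distal regions, the MyoD-type E-box CAGCTG was present in 34 (23.3%) against 27.7% of all distal regions, the AP-1 motif TGACTCA in 10 (6.85%) against 7.67%, CCAAT in 19 (13.0%) against 22.7%, GGGCGG in 24 (16.4%) against 11.5%, and CCGGAAG in 6 (4.11%) against 1.92%. The TCF/LEF motif CTTTGAT was present in 4 (2.74%) against 1.93%, in regions near Dkk3, Fzd4, Fzd6 and Wnt11.

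The window around Dkk2 held 1363 listed bases in replicate 1 and 541 in replicate 2, the reverse of Wnt5a with 851 and 1658.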
